A study of Mus musculus with 9 samples.

Results

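A set of 10 integrin chain genes was examined in 3 populations of innate intraepithelial lymphocytes (IELs), the lymphocytes that lie between the epithelial cells of the gut. The 10 genes were chosen by symbol (Itgae, Itgal, Itga1, Itga2, Itga4, Itgax, Itgam, Itgb1, Itgb2 and Itgb7, of 19938 genes measured), as the alpha and beta chains known from lymphocytes and myeloid cells of the gut. Each was measured by 1 row of the array table. The cells came from the small intestine of NOD-SCID mice aged 8 to 10 weeks, a strain without mature T and B cells, and were sorted as CD3- CD45+ cells to a purity over 98%. Cells positive for both markers (Ly49E+CD8aa+), for Ly49E alone (Ly49E+CD8aa-) or for CD8aa alone (Ly49E-CD8aa+) were each measured on 3 arrays, which the labels number as biological replicates. Ly49E, encoded by Klra5, belongs to a family of NK cell receptors, and CD8aa is a pair of identical CD8 alpha chains. All 3 populations share the strain, the age and the absence of CD3 at the surface, and the labels do not say how many mice stand behind each array.

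Integrins are receptors made of an alpha and a beta chain, which must pair to reach the cell surface, and they bind ligands on other cells or in the matrix. In the gut epithelium the pair of Itgae and Itgb7 (CD103, alpha E beta 7) holds lymphocytes to E-cadherin on enterocytes, while the pair of Itgal and Itgb2 (LFA-1) binds the ICAM proteins during contact between leukocytes and other cells. Itga4 pairs with Itgb7 for entry into the gut and with Itgb1 (VLA-4) for binding to VCAM-1 and fibronectin. Itga1 and Itga2 pair with Itgb1 as collagen receptors. Itgam and Itgax pair with Itgb2 and are best known from macrophages, dendritic cells and some NK cells.

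The arrays were alike in scale, with medians from 5.76 to 5.82 over 35556 rows (log2), and Pearson correlations across rows, which are not independent, from 0.981 to 0.986 within and from 0.978 to 0.985 between populations. Klra5, which encodes Ly49E, averaged 11.40 in Ly49E+CD8aa+, 11.43 in Ly49E+CD8aa- and 6.59 in Ly49E-CD8aa+. Cd8a averaged 12.55, 11.42 and 12.58 in the same order. Ptprc, the gene of CD45, averaged 11.83, 11.82 and 11.85. Cd8a RNA was thus measured far above the array medians also in cells sorted as CD8aa-. Of a list of 8 measured genes of lymphocyte and IEL identity, the means ran from 10.35 to 13.15 in Ly49E+CD8aa+, from 10.64 to 13.05 in Ly49E+CD8aa- and from 9.78 to 13.12 in Ly49E-CD8aa+. Their summed linear level was lowest in Ly49E+CD8aa-, with 42319 to 43179 in Ly49E+CD8aa+, 38810 to 39689 in Ly49E+CD8aa-, and 41135 to 43457 in Ly49E-CD8aa+. Members passed in opposite directions. Il2rb passed as higher for Ly49E+CD8aa+ minus Ly49E+CD8aa- (0.40). For Ly49E+CD8aa- minus Ly49E-CD8aa+, Cd160 passed as higher (0.86) and Il2rb as lower (-0.36). For Ly49E+CD8aa+ minus Ly49E-CD8aa+, 0 of the 8 passed by limma (1 at an unadjusted p under 0.05). In that order the shares were 12.5%, 25% and 0%, against 1.7%, 2.15% and 0.13% of all genes. The calls of Il2rb were lost without any array of Ly49E+CD8aa+ or replicates 1 or 3 of Ly49E+CD8aa- (adjusted p from 0.0507 to 0.107), and without any array but Ly49E+CD8aa- replicate 2 (0.0519 to 0.127). Transcripts of enterocytes were also present, and their summed linear level over 13 markers ran from 6641 to 9786 in Ly49E+CD8aa+, from 5596 to 9824 in Ly49E+CD8aa- and from 5222 to 10235 in Ly49E-CD8aa+. Replicate 1 gave the highest of these sums in each population. The ranges overlapped, and 0 of the 13 markers passed the test in any comparison by limma, with 1 at an unadjusted p under 0.05 in each. Of all 19938 genes, 834 had such a p for Ly49E+CD8aa+ minus Ly49E-CD8aa+, 1880 for Ly49E+CD8aa+ minus Ly49E+CD8aa- and 2081 for Ly49E+CD8aa- minus Ly49E-CD8aa+.

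Of the 10 integrin genes, 4 differed over the 3 populations by the F test of limma (Benjamini-Hochberg adjusted p under 0.05 over all genes), against 2.03% of all genes. They were Itgal (adjusted p = 3.15e-05), Itgb2 (adjusted p = 0.0145), Itga4 (adjusted p = 0.021) and Itgae (adjusted p = 0.0322), while Itgb1 lay just outside (adjusted p = 0.0502). In each of these 4 genes Ly49E+CD8aa- stood apart, and the arrays of Ly49E+CD8aa+ and Ly49E-CD8aa+ overlapped. With any 1 array left out the count was at most 3. It was 1 or 2 without Ly49E+CD8aa+ replicate 3 (2), any array of Ly49E+CD8aa- (2, 1 and 1 for replicates 1, 2 and 3) or Ly49E-CD8aa+ replicate 1 (2). The 2 comparisons with Ly49E+CD8aa- share its arrays, so their values are given side by side and are not independent. The 10 genes and the lists below were chosen with earlier results of these data known. Their shares beside those of all genes are thus descriptive and not a test of the lists.

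**Figure D1:**
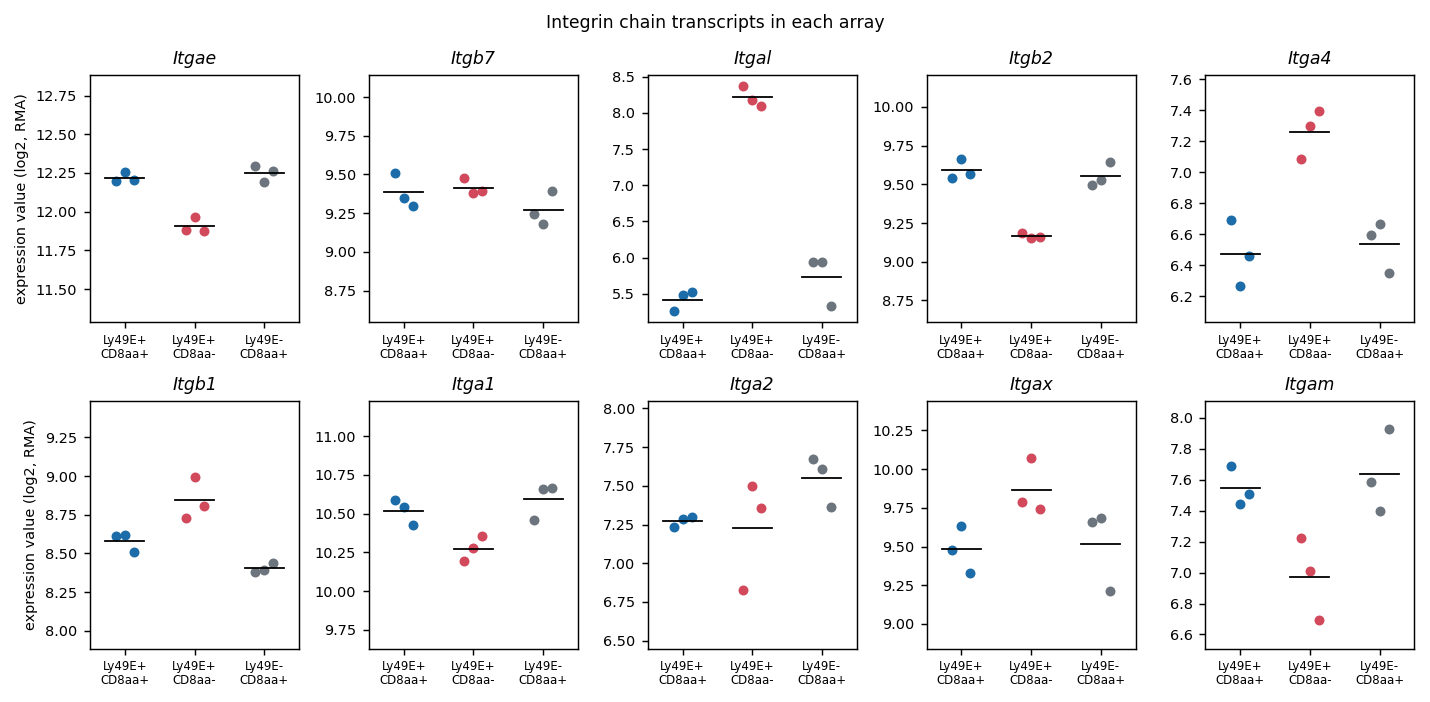
Expression values (log2, RMA) of the 10 integrin genes, 1 point per array with a line at the mean of 3 arrays, in the order Ly49E+CD8aa+, then Ly49E+CD8aa-, then Ly49E-CD8aa+, with a vertical scale of its own in each panel. Itgal read 8.09 to 8.37 in Ly49E+CD8aa- and at most 5.94 in the other arrays, while Itgae and Itgb2 were lowest in Ly49E+CD8aa-.

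Between Ly49E+CD8aa+ and Ly49E-CD8aa+, the comparison that addresses Ly49E among CD8aa+ cells, 0 of the 10 integrin genes passed by limma, against 0.13% of all genes (0.0201% higher and 0.11% lower), and 0 had an unadjusted p under 0.05. The log2 differences ran from -0.31 for Itgal (95% interval -0.68 to 0.05) to 0.18 for Itgb1, with a median of -0.05 against -0.0005 over all genes. The arrays did not overlap in 2 of the 10, Itgb1 and Itga2 (6.25% of all genes). With these intervals, differences of up to 0.68 are not excluded by the values of Itgal, and that of Itgae ran from -0.17 to 0.11.

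Between Ly49E+CD8aa+ and Ly49E+CD8aa-, the comparison that addresses CD8aa among Ly49E+ cells, 2 of the 10 integrin genes passed as higher, Itgae and Itgb2 (0.476% of all genes), and 2 as lower, Itgal and Itga4 (1.22% of all genes). The arrays did not overlap in 8 of the 10, 4 in each direction (12.9% of all genes), and these 8 had an unadjusted p under 0.05. The exceptions were Itga2 and Itgb7. The median difference was 0.0075, against 0.025 over all genes, with members on both sides of 0.

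Between Ly49E+CD8aa- and Ly49E-CD8aa+, which differ in both markers, 3 of the 10 integrin genes passed as higher, Itgal, Itga4 and Itgb1 (1.35% of all genes), and 2 as lower, Itgae and Itgb2 (0.802% of all genes). The same 8 genes as above had arrays that did not overlap, 4 in each direction (12.7% of all genes). The median difference was -0.09, against -0.024 over all genes.

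**Figure D2:**
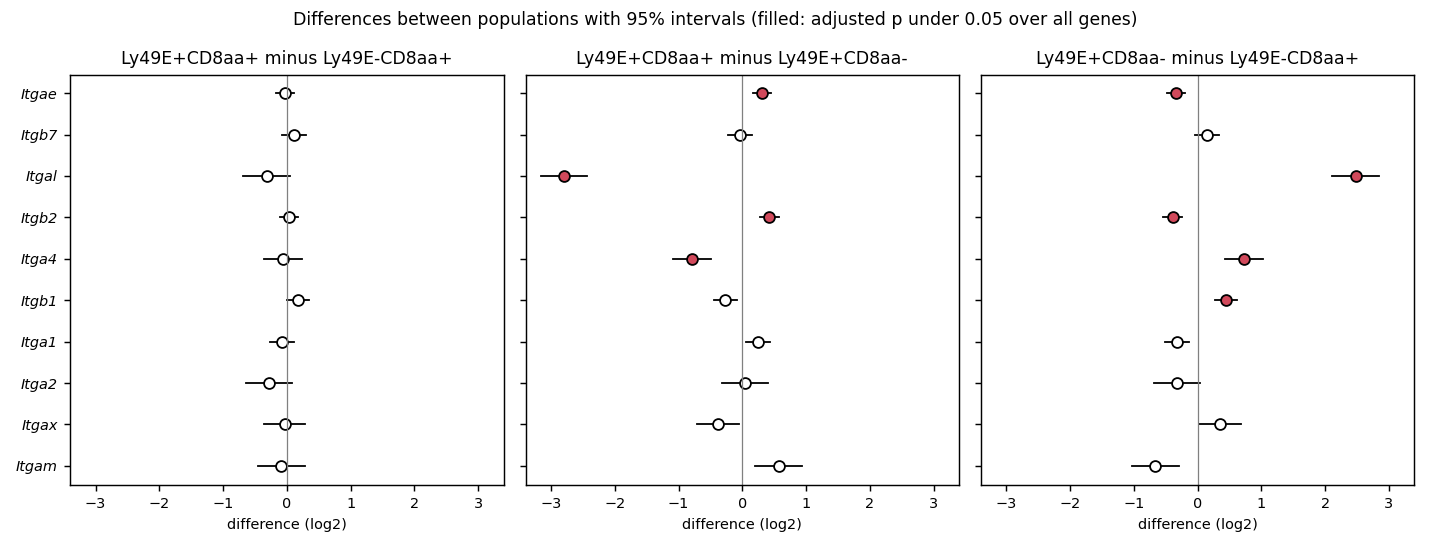
Log2 differences between populations for the 10 integrin genes, with 95% intervals from the model, and filled points for an adjusted p under 0.05 over all genes. No point is filled for Ly49E+CD8aa+ minus Ly49E-CD8aa+, while 4 are filled for Ly49E+CD8aa+ minus Ly49E+CD8aa- and 5 for Ly49E+CD8aa- minus Ly49E-CD8aa+, with Itgal at -2.80 and 2.48.

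Itgae, the alpha chain that binds E-cadherin with Itgb7, read near 12 in all 3 populations and was slightly lower in Ly49E+CD8aa-. It read 12.20, 12.26 and 12.20 in arrays of Ly49E+CD8aa+, 11.88, 11.97 and 11.88 in those of Ly49E+CD8aa-, and 12.30, 12.19 and 12.27 in those of Ly49E-CD8aa+. Every array of Ly49E+CD8aa- lay below every other array, and the other populations overlapped. The mean of 12.22 ± 0.0336 in Ly49E+CD8aa+ was higher than that of 11.91 ± 0.0509 in Ly49E+CD8aa- (SD, n = 3 each) by 0.31 (standard error, SE, 0.0611, limma adjusted p = 0.04), a 1.24-fold difference. Ly49E+CD8aa- was lower than Ly49E-CD8aa+, at 12.25 ± 0.053, by a log2 difference of -0.34 (SE 0.0611, limma adjusted p = 0.0213). The first of these calls was lost without any array but Ly49E-CD8aa+ replicate 1 (adjusted p from 0.0561 to 0.152). The second was lost without replicates 1 or 3 of Ly49E+CD8aa- or of Ly49E-CD8aa+ (adjusted p from 0.0652 to 0.0843). Of the 12 other alternative settings, 7 lost the first call and 5 the second. Among them was the replicate number as a block (limma adjusted p = 0.0971 and 0.0596). In bulk RNA, fewer cells of a type and less RNA per cell cannot be told apart.

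Itgb7, the beta chain of Itgae, did not pass in any comparison. Its values were 9.51, 9.35 and 9.29 in arrays of Ly49E+CD8aa+, 9.48, 9.38 and 9.39 in those of Ly49E+CD8aa-, and 9.24, 9.18 and 9.39 in those of Ly49E-CD8aa+. The arrays of all 3 populations overlapped. The difference of Ly49E+CD8aa+ from Ly49E+CD8aa- was -0.03 (95% interval -0.22 to 0.16), and that of Ly49E+CD8aa- from Ly49E-CD8aa+ was 0.14 (95% interval -0.04 to 0.33), neither of which passed.

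Itgal, the alpha chain of LFA-1, had the largest difference of the 10 genes. It read 5.26, 5.48 and 5.52 in arrays of Ly49E+CD8aa+, 8.37, 8.18 and 8.09 in those of Ly49E+CD8aa-, and 5.94, 5.93 and 5.33 in those of Ly49E-CD8aa+. All 3 arrays of Ly49E+CD8aa- lay above the other 6 by more than 2 log2 units, and the CD8aa+ populations overlapped. The 3 arrays of Ly49E+CD8aa+ and replicate 3 of Ly49E-CD8aa+ read below the medians of their arrays over all rows, although no call of detection was used. Ly49E+CD8aa+ (5.42 ± 0.138) was lower than Ly49E+CD8aa- (8.22 ± 0.144) by a log2 difference of -2.80 (SE 0.163, limma adjusted p = 2.15e-05, n = 3 each), a 6.95-fold difference. Ly49E+CD8aa- was higher than Ly49E-CD8aa+ (5.73 ± 0.35) by 2.48 (SE 0.163, limma adjusted p = 4.83e-05), a 5.59-fold difference. These calls held in each of the 21 alternative settings.

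Itgb2, the common beta chain of Itgal, Itgam and Itgax, went the other way from Itgal. Its values were 9.54, 9.66 and 9.57 in arrays of Ly49E+CD8aa+, 9.18, 9.15 and 9.16 in those of Ly49E+CD8aa-, and 9.50, 9.53 and 9.64 in those of Ly49E-CD8aa+. The arrays of Ly49E+CD8aa- were the lowest, with an SD of 0.0163, and the CD8aa+ populations overlapped. Ly49E+CD8aa+ was higher than Ly49E+CD8aa- by 0.42 (SE 0.0655, limma adjusted p = 0.0105), a 1.34-fold difference, and Ly49E+CD8aa- differed from Ly49E-CD8aa+ by -0.39 (SE 0.0655, limma adjusted p = 0.0151). Leaving out Ly49E+CD8aa+ replicate 2 ended the first call (adjusted p = 0.0525). The second was lost without any array of Ly49E+CD8aa- or without Ly49E-CD8aa+ replicate 3 (adjusted p from 0.0537 to 0.0611).

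Itgam, the alpha chain of the complement receptor CR3, was lowest by level in Ly49E+CD8aa-, like Itgb2, but did not pass. It read 7.69, 7.44 and 7.51 in arrays of Ly49E+CD8aa+, 7.22, 7.01 and 6.69 in those of Ly49E+CD8aa-, and 7.58, 7.40 and 7.93 in those of Ly49E-CD8aa+. The arrays of Ly49E+CD8aa- lay below all others. The log2 difference of Ly49E+CD8aa+ from Ly49E+CD8aa- was 0.57 (95% interval 0.21 to 0.94, limma adjusted p = 0.192), and that of Ly49E+CD8aa- from Ly49E-CD8aa+ was -0.66 (95% interval -1.03 to -0.30, limma adjusted p = 0.0977). The array holds 3 further rows whose annotation names Itgam together with a ribosomal protein gene, and these were not used.

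Itgax, known as CD11c, is common to dendritic cells and many activated lymphocytes, and it did not pass. Its values were 9.48, 9.63 and 9.33 in arrays of Ly49E+CD8aa+, 9.78, 10.07 and 9.74 in those of Ly49E+CD8aa-, and 9.66, 9.69 and 9.21 in those of Ly49E-CD8aa+. The arrays of Ly49E+CD8aa- were the highest, by a narrow gap to the nearest array of Ly49E-CD8aa+. The log2 differences were -0.38 for Ly49E+CD8aa+ minus Ly49E+CD8aa- (95% interval -0.71 to -0.05, limma adjusted p = 0.413) and 0.35 for Ly49E+CD8aa- minus Ly49E-CD8aa+ (95% interval 0.02 to 0.67, limma adjusted p = 0.447).

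Since Itgax and Itgam also mark myeloid cells, lists of other myeloid genes were set beside them. The summed linear level of 11 dendritic cell markers ran from 1396 to 1412 in Ly49E+CD8aa+, from 1443 to 1668 in Ly49E+CD8aa- and from 1757 to 2860 in Ly49E-CD8aa+. That of 10 macrophage and monocyte markers ran from 440 to 463, from 361 to 377 and from 581 to 829 in the same order. Both sums were thus highest in Ly49E-CD8aa+. Of the dendritic markers, Siglech passed as lower in Ly49E+CD8aa+ relative to Ly49E-CD8aa+ (-1.98). All 11 read lower there, 10 had an unadjusted p under 0.05 and 8 had arrays that did not overlap. In that comparison 0.13% of all 19938 genes passed, 834 had an unadjusted p under 0.05 and 6.25% had arrays that did not overlap. Siglech (-1.87), Cd209a (-1.10) and Clec9a (-0.73) passed as lower in Ly49E+CD8aa- relative to Ly49E-CD8aa+, with 7 of the 11 at an unadjusted p under 0.05. There 2.15% of all 19938 genes passed, and 2081 had an unadjusted p under 0.05. Of the macrophage markers, Cybb and Mpeg1 passed as lower in Ly49E+CD8aa+ relative to Ly49E-CD8aa+ (-2.48 and -1.75). They also passed as lower for Ly49E+CD8aa- minus Ly49E-CD8aa+ (-2.39 and -1.95), with 3 of the 10 at an unadjusted p under 0.05 in each. For Ly49E+CD8aa+ minus Ly49E-CD8aa+, Lyz2, Fcgr1 and Adgre1 went the other way (0.18, 0.064 and 0.019), and the rest of the 10 read lower. In Ly49E+CD8aa+, then Ly49E+CD8aa-, Cybb averaged 3.93 and 4.02, and Clec9a averaged 3.89 and 3.70, below the lower quartiles of the arrays. These rows were not shown to be above background there, so the differences of Cybb may understate the change. In Ly49E-CD8aa+ Clec9a averaged 4.42, also below the lower quartiles, with replicate 1 above them (4.66). Clec9a was thus not shown to be above background in any population. The call of Mpeg1 for Ly49E+CD8aa+ was lost without any array of that population, Ly49E+CD8aa- replicates 1 or 2, or Ly49E-CD8aa+ replicate 1 (adjusted p from 0.0573 to 0.101), and that of Clec9a without Ly49E+CD8aa- replicates 1 or 3 (0.0625 and 0.0627). Between Ly49E+CD8aa+ and Ly49E+CD8aa-, 0 of 11 and 0 of 10 passed by limma, with 1 of each list at an unadjusted p under 0.05. Of all 19938 genes, 1.7% passed there and 1880 had an unadjusted p under 0.05. Adgre1, a surface antigen that defines macrophages, averaged 3.48, 3.48 and 3.46 in Ly49E+CD8aa+, then Ly49E+CD8aa-, then Ly49E-CD8aa+, below the lower quartile of each array. No marker was listed at 0. The sums of 6 stromal and endothelial markers were 1051 to 1282 in Ly49E+CD8aa+, 842 to 958 in Ly49E+CD8aa- and 1029 to 1136 in Ly49E-CD8aa+. Those of 5 B cell markers (905 to 1062, 832 to 1114 and 903 to 1166) and of 7 granulocyte and mast cell markers (131 to 157, 124 to 176 and 120 to 143) overlapped between the populations, given in the same order. Of these 3 lists, 0 genes passed in any comparison by limma, with 0 to 2 per list at an unadjusted p under 0.05. The part of these cells in the values of Itgax and Itgam was not tested.

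**Figure D3:**
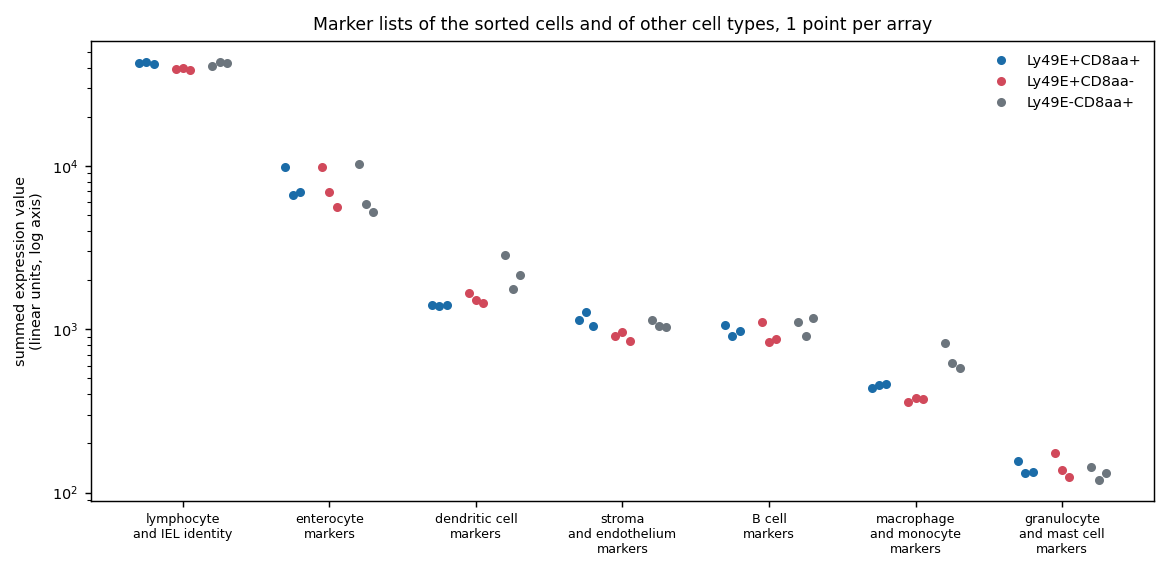
Summed expression values (linear units on a log axis) of 7 marker lists, 1 point per array, for Ly49E+CD8aa+, then Ly49E+CD8aa-, then Ly49E-CD8aa+ from left to right within a list. Dendritic cell markers (1757 to 2860) and macrophage and monocyte markers (581 to 829) were highest in Ly49E-CD8aa+, and enterocyte markers were highest in replicate 1 of each population.

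Itga4, the alpha chain of VLA-4 and of the gut-homing receptor alpha 4 beta 7, was higher in Ly49E+CD8aa- than in both other populations. It read 6.69, 6.27 and 6.46 in arrays of Ly49E+CD8aa+, 7.09, 7.30 and 7.40 in those of Ly49E+CD8aa-, and 6.59, 6.66 and 6.35 in those of Ly49E-CD8aa+. The arrays of Ly49E+CD8aa- lay above all others, which overlapped among themselves. Ly49E+CD8aa+ (6.47 ± 0.212) was lower than Ly49E+CD8aa- (7.26 ± 0.158) by a log2 difference of -0.79 (SE 0.13, limma adjusted p = 0.0161, n = 3 each), a 1.73-fold difference. Ly49E+CD8aa- was higher than Ly49E-CD8aa+ (6.54 ± 0.164) by 0.73 (SE 0.13, limma adjusted p = 0.022). The first call was lost without replicates 2 or 3 of Ly49E+CD8aa+ or of Ly49E+CD8aa- (adjusted p from 0.0619 to 0.0744). The second was lost without replicates 2 or 3 of Ly49E+CD8aa- or replicates 1 or 3 of Ly49E-CD8aa+ (adjusted p from 0.0664 to 0.0932). Of the 12 other alternative settings, 3 lost each call. With the replicate number as a block the second was lost (limma adjusted p = 0.0547).

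Itgb1, the beta chain of VLA-4 and of the collagen receptors, had the order Ly49E+CD8aa-, Ly49E+CD8aa+ and Ly49E-CD8aa+ from high to low. Its values were 8.61, 8.62 and 8.51 in arrays of Ly49E+CD8aa+, 8.73, 8.99 and 8.81 in those of Ly49E+CD8aa-, and 8.38, 8.39 and 8.44 in those of Ly49E-CD8aa+. It was the 1 gene of the 10 in which the arrays of no pair of populations overlapped. The outer populations differed by 0.44 (Ly49E+CD8aa- minus Ly49E-CD8aa+, SE 0.0782, limma adjusted p = 0.0206), a 1.36-fold difference, which was lost without Ly49E+CD8aa- replicates 2 or 3 or any array of Ly49E-CD8aa+ (adjusted p from 0.0526 to 0.0784). The neighbours in that order did not pass, with -0.27 for Ly49E+CD8aa+ minus Ly49E+CD8aa- (95% interval -0.44 to -0.09) and 0.18 for Ly49E+CD8aa+ minus Ly49E-CD8aa+ (95% interval -0.0008 to 0.35).

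Itga4 and Itgb1, and with them Itga5, the partner of Itgb1 in the fibronectin receptor, read highest in the same population. The 250 bases before the start of each of these genes are shown. Itgal, Itgax and Itgb3, whose arrays of Ly49E+CD8aa- also lay above all others, are not shown. The sequences shown are from RefSeq, GRCm38.p6, 5′ to 3′ on the strand of the gene, for Itga4 chr2:79255176-79255425 (plus strand), Itgb1 chr8:128685404-128685653 (plus strand) and Itga5 chr15:103366792-103367041 (minus strand). Capitals mark matches, on either strand, to the letters TGTGGT (RUNX), GGGCGG (Sp1), GGTGTGA (T-box) and GGAAGT (Ets). No matches overlap in them.
Itga4: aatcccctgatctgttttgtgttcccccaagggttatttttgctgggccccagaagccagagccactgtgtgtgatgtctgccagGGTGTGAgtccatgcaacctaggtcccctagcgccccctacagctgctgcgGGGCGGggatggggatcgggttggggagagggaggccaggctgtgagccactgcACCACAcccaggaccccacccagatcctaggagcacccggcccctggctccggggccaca
Itgb1: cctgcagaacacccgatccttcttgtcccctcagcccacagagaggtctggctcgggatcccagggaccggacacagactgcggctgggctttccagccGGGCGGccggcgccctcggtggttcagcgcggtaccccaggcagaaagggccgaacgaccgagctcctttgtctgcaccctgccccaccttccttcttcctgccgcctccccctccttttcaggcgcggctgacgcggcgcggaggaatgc
Itga5: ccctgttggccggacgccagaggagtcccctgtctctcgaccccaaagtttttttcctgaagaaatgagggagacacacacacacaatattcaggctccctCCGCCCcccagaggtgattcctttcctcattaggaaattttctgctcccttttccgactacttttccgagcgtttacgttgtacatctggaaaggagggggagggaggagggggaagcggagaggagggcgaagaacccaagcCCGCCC
The 3 sequences share a match to GGGCGG, which 32.7% of the 32851 promoters in the table hold. Itga4 alone of the 3 holds the RUNX letters (14% of promoters) and the T-box letters (3.3% of promoters), 60 and 165 bases before the start, and none of the 3 holds the Ets letters (19.7% of promoters). Of the 10 integrin genes, 7 were matched in the table, without Itgae, Itgal and Itgb2. GGGCGG was found in 3 of the 7, Itga4, Itgb1 and Itgam, the last of which read lowest in Ly49E+CD8aa-. The Ets letters were found in 2 of the 7, Itga1 and Itgax, and the RUNX and T-box letters in Itga4 alone. These matches describe the letters in this window and not binding.

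Itga1, the alpha chain of the collagen receptor VLA-1 (CD49a) found on many tissue-resident lymphocytes, did not pass in any comparison. It read 10.59, 10.54 and 10.43 in arrays of Ly49E+CD8aa+, 10.19, 10.28 and 10.35 in those of Ly49E+CD8aa-, and 10.46, 10.66 and 10.67 in those of Ly49E-CD8aa+. The arrays of Ly49E+CD8aa- lay below all others. The differences of 0.24 for Ly49E+CD8aa+ minus Ly49E+CD8aa- (95% interval 0.06 to 0.43, limma adjusted p = 0.321) and -0.32 for Ly49E+CD8aa- minus Ly49E-CD8aa+ (95% interval -0.51 to -0.14, limma adjusted p = 0.119) did not pass over all genes. With weights per array the second became -0.36 and passed (limma adjusted p = 0.0465).

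Itga2, the alpha chain of VLA-2 (CD49b) known from circulating NK cells, varied most within Ly49E+CD8aa-. Its values were 7.24, 7.29 and 7.30 in arrays of Ly49E+CD8aa+, 6.83, 7.50 and 7.36 in those of Ly49E+CD8aa-, and 7.67, 7.61 and 7.36 in those of Ly49E-CD8aa+. Replicate 1 of Ly49E+CD8aa- was the lowest of the 9 arrays, and the SD of 0.355 there was above those of 0.0319 in Ly49E+CD8aa+ and 0.163 in Ly49E-CD8aa+. The difference of Ly49E+CD8aa+ from Ly49E+CD8aa- was 0.05 (95% interval -0.31 to 0.40), and became -0.16 without that array. The difference of Ly49E+CD8aa- from Ly49E-CD8aa+ was -0.32 (95% interval -0.68 to 0.04).

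Of 17 further integrin chains measured, 3 passed in at least 1 comparison. The share was 11.8% for Ly49E+CD8aa+ minus Ly49E+CD8aa- and 17.6% for Ly49E+CD8aa- minus Ly49E-CD8aa+, against 1.7% and 2.15% of all genes. Itga5 read 5.68, 5.52 and 5.67 in arrays of Ly49E+CD8aa+, 6.49, 6.39 and 6.83 in those of Ly49E+CD8aa-, and 5.64, 5.45 and 5.24 in those of Ly49E-CD8aa+. It was lower in Ly49E+CD8aa+ relative to Ly49E+CD8aa- (-0.95, SE 0.132, limma adjusted p = 0.00629) and higher in Ly49E+CD8aa- relative to Ly49E-CD8aa+ (1.13, SE 0.132, limma adjusted p = 0.00191). Itgb3, a beta chain of the vitronectin receptor, read 6.92, 6.77 and 6.82 in arrays of Ly49E+CD8aa+, 7.91, 7.72 and 7.88 in those of Ly49E+CD8aa-, and 6.89, 6.71 and 6.45 in those of Ly49E-CD8aa+. It had differences of -1.003 (SE 0.112, limma adjusted p = 0.00166) for Ly49E+CD8aa+ minus Ly49E+CD8aa- and 1.16 (SE 0.112, limma adjusted p = 0.000561) for Ly49E+CD8aa- minus Ly49E-CD8aa+. In both genes the arrays of Ly49E+CD8aa- lay above all others. Itgb2l, a gene like Itgb2 whose probes may share sequence with it, was lower in Ly49E+CD8aa- relative to Ly49E-CD8aa+ (-0.40, limma adjusted p = 0.0342), a call lost without any array but Ly49E+CD8aa+ replicate 1 (adjusted p from 0.0524 to 0.132). Itgav, the usual partner of Itgb3, averaged 9.01, 8.58 and 9.11 in Ly49E+CD8aa+, then Ly49E+CD8aa-, then Ly49E-CD8aa+ and did not pass.

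Among 16 measured ligands of integrins, Icam2, a ligand of LFA-1 that leukocytes carry themselves, was the 1 that passed. This was 6.25% of the list in each comparison with Ly49E+CD8aa-, against 1.7% and 2.15% of all genes. It read 6.51, 6.43 and 6.30 in arrays of Ly49E+CD8aa+, 7.71, 7.37 and 7.75 in those of Ly49E+CD8aa-, and 6.23, 6.40 and 6.03 in those of Ly49E-CD8aa+. The difference was -1.19 (SE 0.126, limma adjusted p = 0.00124) for Ly49E+CD8aa+ minus Ly49E+CD8aa- and 1.39 (SE 0.126, limma adjusted p = 0.000366) for Ly49E+CD8aa- minus Ly49E-CD8aa+. Icam2 and its receptor chain Itgal were thus both highest in Ly49E+CD8aa-. Cdh1, which encodes E-cadherin and is an epithelial gene, averaged 10.44, 10.33 and 10.27 in Ly49E+CD8aa+, then Ly49E+CD8aa-, then Ly49E-CD8aa+ and did not pass, nor did Icam1 (7.69, 7.80 and 7.79), Vcam1 (4.97, 4.84 and 4.94) or Madcam1 (4.72, 4.63 and 4.68).

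Of 26 measured genes of integrin activation and adhesion, 1 passed. Vcl, which encodes vinculin, a link from talin to actin, had a difference of -0.64 for Ly49E+CD8aa+ minus Ly49E+CD8aa- (limma adjusted p = 0.0243) and 0.73 for Ly49E+CD8aa- minus Ly49E-CD8aa+ (limma adjusted p = 0.0108), at means of 4.74, 5.39 and 4.66 in Ly49E+CD8aa+, then Ly49E+CD8aa-, then Ly49E-CD8aa+. The first of these was lost without replicates 1 or 2 of Ly49E+CD8aa+ or any array of Ly49E+CD8aa- (adjusted p from 0.062 to 0.0973), and the second without replicates 2 or 3 of Ly49E-CD8aa+ (0.0504 and 0.0538). The genes that switch LFA-1 to its active form did not pass. Tln1 (talin) averaged 9.38, 9.42 and 9.54 in Ly49E+CD8aa+, then Ly49E+CD8aa-, then Ly49E-CD8aa+, Fermt3 (kindlin 3) 8.45, 8.37 and 8.36, and Rap1b 11.005, 11.17 and 10.98. Rasgrp2 of the same list averaged 5.38, 5.93 and 5.67 and did not pass. Its arrays did not overlap in either comparison with Ly49E+CD8aa- (12.9% and 12.7% of all genes). At an unadjusted p under 0.05 were 5 and 4 of the 26, against 1880 and 2081 of all 19938 genes. The share that passed was 3.85% in each of these comparisons, against 1.7% and 2.15% of all genes, and the medians of -0.02 and -0.01 lay near 0.

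Of 12 membrane proteins that associate with integrins, 25% passed for Ly49E+CD8aa+ minus Ly49E+CD8aa- and 16.7% for Ly49E+CD8aa- minus Ly49E-CD8aa+, against 1.7% and 2.15% of all genes. Cd226, an activating receptor that associates with LFA-1, averaged 9.65 ± 0.0167 in Ly49E+CD8aa+, 10.69 ± 0.0851 in Ly49E+CD8aa- and 8.85 ± 0.194 in Ly49E-CD8aa+. Its difference was -1.04 for Ly49E+CD8aa+ minus Ly49E+CD8aa- (limma adjusted p = 0.000518) and 1.84 for Ly49E+CD8aa- minus Ly49E-CD8aa+ (SE 0.0971, limma adjusted p = 1.02e-05). The difference of 0.80 for Ly49E+CD8aa+ minus Ly49E-CD8aa+ (limma adjusted p = 0.0292) was lost without any array but Ly49E-CD8aa+ replicate 2 (adjusted p from 0.0671 to 0.163). Cd9, a tetraspanin that binds beta 1 integrins, had differences of -1.26 for Ly49E+CD8aa+ minus Ly49E+CD8aa- (limma adjusted p = 0.00969) and 1.02 for Ly49E+CD8aa- minus Ly49E-CD8aa+ (limma adjusted p = 0.0259). This second call of Cd9 was lost without Ly49E+CD8aa+ replicate 3, Ly49E+CD8aa- replicates 1 or 2, or Ly49E-CD8aa+ replicates 2 or 3 (adjusted p from 0.055 to 0.102). Cd63, a tetraspanin of lysosomes, went the other way, with 0.58 for Ly49E+CD8aa+ minus Ly49E+CD8aa- (limma adjusted p = 0.00388).

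Of 17 measured factors known to regulate integrin or residency genes, 4 passed in the comparisons with Ly49E+CD8aa-, or 23.5% in each, against 1.7% and 2.15% of all genes. Runx3, which is needed for Itgae in CD8 T cells, averaged 10.80, 10.84 and 10.86 in Ly49E+CD8aa+, then Ly49E+CD8aa-, then Ly49E-CD8aa+ and did not pass, and neither did the TGF-beta receptor genes Tgfbr1 (9.42, 8.99 and 9.32) and Tgfbr2 (8.75, 8.70 and 8.58). Smad3, a mediator of TGF-beta signals, had differences of -1.25 for Ly49E+CD8aa+ minus Ly49E+CD8aa- (limma adjusted p = 0.00318) and 1.12 for Ly49E+CD8aa- minus Ly49E-CD8aa+ (limma adjusted p = 0.00515). Smad3 was thus highest where Itgae was lowest. Rara, a receptor of retinoic acid, had differences of -1.15 (limma adjusted p = 0.000447) and 1.19 (limma adjusted p = 0.000314) in the same comparisons, and the T-box factor gene Eomes of -2.83 (limma adjusted p = 0.0002) and 2.57 (limma adjusted p = 0.000319). Eomes averaged 4.32 in Ly49E+CD8aa+, against 4.58 in Ly49E-CD8aa+, around the lower quartile of the arrays and not shown to be above background, so its differences may understate the change. Prdm1, which encodes Blimp-1, a factor of tissue residency, had the order of Itgae, with 0.51 for Ly49E+CD8aa+ minus Ly49E+CD8aa- (limma adjusted p = 0.0121) and -0.53 for Ly49E+CD8aa- minus Ly49E-CD8aa+ (limma adjusted p = 0.00935). Its first call was lost without Ly49E+CD8aa+ replicate 2 or Ly49E+CD8aa- replicates 2 or 3 (adjusted p from 0.0522 to 0.0598).

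For Ly49E+CD8aa+ minus Ly49E-CD8aa+, 0 of the 17 further chains, 0 of the 16 ligands, 0 of the 26 activation and adhesion genes and 0 of the 17 regulators passed by limma, with 0, 1, 4 and 0 at an unadjusted p under 0.05. Cd226 was the 1 that passed among the 12 associated proteins (8.33%). Of all 19938 genes, 0.13% passed in this comparison and 834 had an unadjusted p under 0.05. Counts of 0 in lists this short are thus near the share over all genes.

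**Figure D4:**
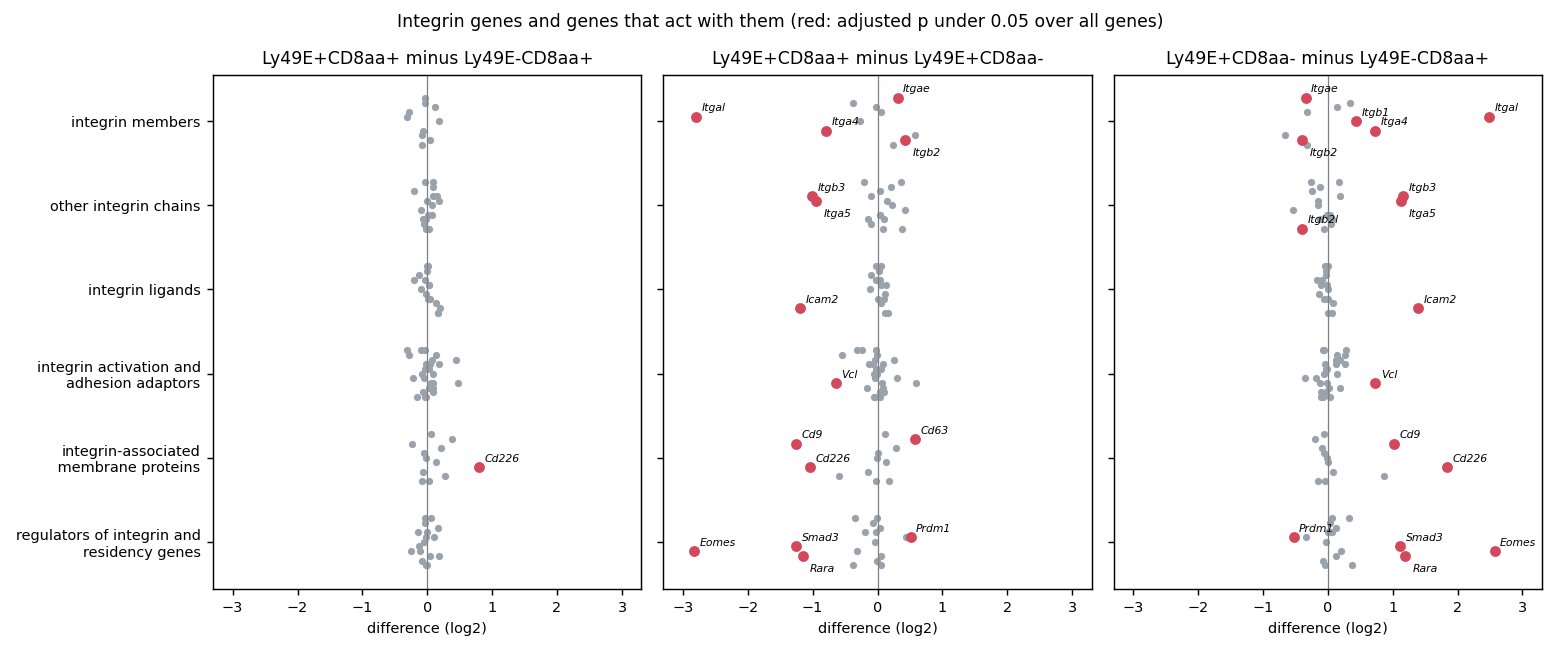
Log2 differences of the 10 integrin genes and of 5 lists of genes that act with them, 1 point per gene, in the 3 comparisons, with red points and names for an adjusted p under 0.05 over all genes. The named genes lie in the comparisons with Ly49E+CD8aa-, apart from Cd226 at 0.80 for Ly49E+CD8aa+ minus Ly49E-CD8aa+, and most other genes lie near 0.

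Genes with the most similar pattern were found for the 4 integrin genes that passed the F test, by the root mean square difference over 9 arrays of log2 values centred on the mean of each gene. Nearest to Itgal were Cd28, a costimulatory receptor (0.15), Cd44, the hyaluronan receptor (0.24), and Klrc3, an NKG2 receptor (0.245). Cd28 averaged 4.499 in Ly49E+CD8aa+, 7.04 in Ly49E+CD8aa- and 4.68 in Ly49E-CD8aa+. Like Itgal it read lower in replicate 3 than in replicates 1 and 2 of Ly49E-CD8aa+, which its choice by pattern over these arrays favours. Nearest to Itgae were Atp6v0a2, a subunit of the vacuolar proton pump (0.0351), Afg3l2, a mitochondrial protease subunit (0.0576), and Dpysl2 (0.0577). Atp6v0a2 was also among the genes nearest to Itgb2 (0.0741), with Wbp1l (0.0726) and Fam3c (0.0769). Nearest to Itga4 were Abhd2 (0.107), Dse, an enzyme of dermatan sulfate synthesis (0.139), and Ppp1r14c (0.143). These genes share all 9 arrays with the integrin genes, and the measure is a description without a test.

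**Figure D5:**
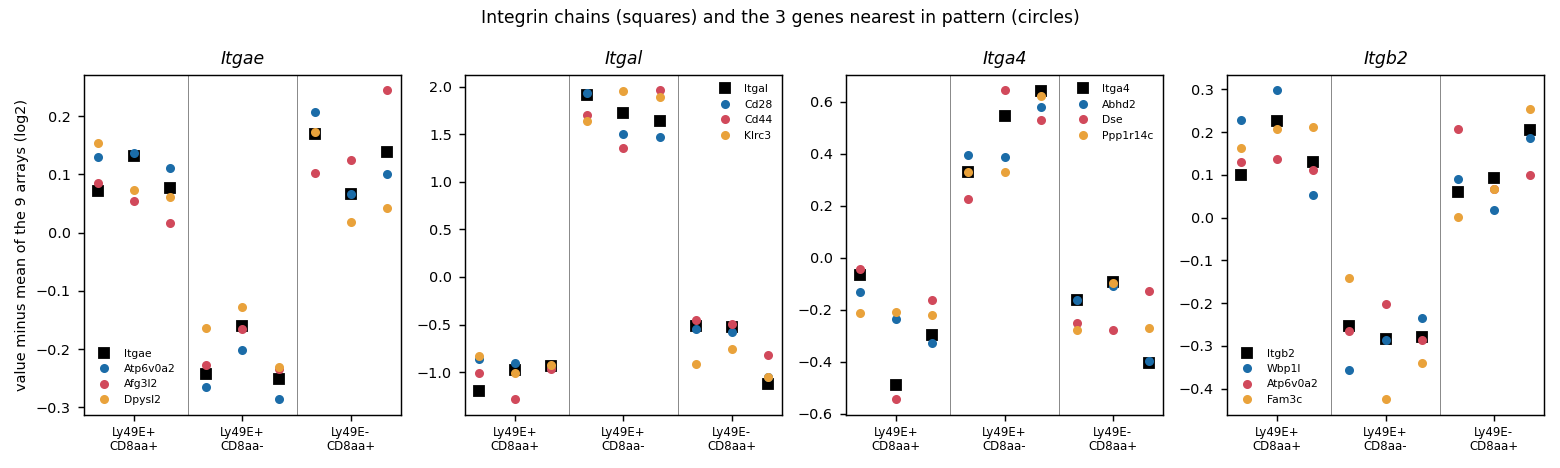
Values minus the mean of the 9 arrays (log2) for Itgae, Itgal, Itga4 and Itgb2 (squares) and the 3 genes nearest to each in pattern (circles), with replicates 1 to 3 from left to right within Ly49E+CD8aa+, then Ly49E+CD8aa-, then Ly49E-CD8aa+. Predicted genes and the other integrin genes were left out of the search. Itgal and its neighbours lie apart in Ly49E+CD8aa-. The vertical scales differ between panels, from under 0.4 either way for Itgae to about 2 for Itgal.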

How the data were processed

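Total RNA was amplified (NuGEN Ovation Pico WTA V2) and hybridised to Affymetrix Mouse Gene 1.0 ST arrays, per the labels. The authors deposited log2 values for each row (transcript cluster) and array, and the submitters' processing notes name RMA. Its version, genome build and annotation are not stated in these sources. RMA makes the arrays share 1 distribution, so a shift of most genes cannot be seen, and the number of arrays limits the precision.

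Of 35556 rows, 21789 carried 1 gene symbol in the platform annotation, and 21698 of these matched a current gene record. Where a gene had several rows, the brightest by mean was used, which left 19938 genes, and each integrin gene had 1 such row. limma 3.58.1 in R 4.3.3 fitted a mean per population to all 9 arrays with empirical Bayes moderation and no block. A gene passed when its 2-sided Benjamini-Hochberg adjusted p over 19938 genes was under 0.05, with no minimum difference and no filter on dim rows. In each difference the population named after minus is subtracted. Data were simulated for Ly49E+CD8aa+ minus Ly49E+CD8aa- over 19938 genes. Of 50 genes each changed by 0.5, 1 and 2 log2 units, 56%, 86% and 98% were recovered, and 8 unchanged genes passed. The noise was drawn once, as independent between arrays, with no effect shared by replicate number.

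The members and lists were chosen with earlier results of these data known. The named genes were the 10 integrin genes, other integrin chains that passed, up to 4 passing genes per list and comparison, and the sort markers. The 3 nearest genes in pattern, without predicted genes or the 10 integrin genes, were also named. Other list members are given as examples chosen after their values were seen. List genes without a row of 1 symbol are not analysed here. Alternatives were fits on the 6 arrays compared, filters on dim rows, other normalizations, moderation and weights, every row on its own, stricter thresholds, the replicate number as a block, and leaving out each array. Beyond the word biological, no label says that replicates came from separate mice, so p-values measure the spread between these arrays.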

Additional observations from a re-analysis of the deposited data

How the results depend on the processing

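Of the 9 integrin differences that passed, the 2 of Itgal passed in each of the 21 alternatives, the other 7 were lost in at least 1, and 0 changed sign. Of the 21 that did not pass, 20 passed in no alternative, and Itga1 passed with array weights (Ly49E+CD8aa- minus Ly49E-CD8aa+, -0.36, limma adjusted p = 0.0465). Of 38 other named differences that passed, 21 were kept in each alternative that gave a value. The filter at the median left out the rows of Eomes, Cybb, Cd209a, Clec9a and Vcl. A cause was not tested for any of these changes. A second row per integrin gene could not be tried, since each has a single row with 1 symbol.

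For Ly49E+CD8aa+ minus Ly49E+CD8aa-, the 2 integrin genes passing as higher became 1 with the 6 arrays of the comparison, quantile normalization again, a filter that drops the dimmer rows below the median, median centring or the replicate block, and 0 at a threshold of 0.01 or a difference of at least 1. The 2 passing as lower became 1 with the 6 arrays, at 0.01 and at a difference of at least 1. For Ly49E+CD8aa- minus Ly49E-CD8aa+, the 3 higher became 1 at 0.01 and at a difference of at least 1, while the 2 lower became 1 with the 6 arrays, centring or the block, and 0 at 0.01 and at a difference of at least 1. The 4 genes of the F test became 1 at 0.01 and 2 with the block. Counts also rose, to at most 5 for the F test and to at most 3 lower for Ly49E+CD8aa- minus Ly49E-CD8aa+. Leaving out 1 array gave 0 to 2 higher and 1 to 2 lower in the first comparison, 1 to 3 higher and 0 to 2 lower in the second, and 1 to 3 by the F test. In the lists of other integrin genes, the 1 gene passing for Ly49E+CD8aa+ minus Ly49E-CD8aa+ became 0 with the 6 arrays, at 0.01, at a difference of at least 1 and with the block (0 to 1 leaving out an array). The 11 for Ly49E+CD8aa+ minus Ly49E+CD8aa- became 7 at a difference of at least 1 (9 to 11 leaving out an array). They were at most 12 in any alternative.

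Differences that did not pass changed sign when 1 array was left out. For Ly49E+CD8aa+ minus Ly49E-CD8aa+, Itga4 ran from -0.17 to 0.039, Itgax from -0.19 to 0.047, Itgam from -0.21 to 0.056 and Itgb2 from -0.0033 to 0.076. For Ly49E+CD8aa+ minus Ly49E+CD8aa-, Itga2 ran from -0.16 to 0.18 and Itgb7 from -0.093 to 0.015.

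Replicate numbers occur in each population. The deviations of same-numbered arrays from their population means correlated from -0.063 to 0.222, with 4 of 9 pairs over 0.1. Pairs of unlike number ran from -0.169 to 0.103. The pairs of replicate 1 gave 0.172, 0.222 and 0.127, and 6 of 9 arrays correlated best with their own number. No label states a pairing, so the main fit used no block, and an effect shared by replicate number was not tested. With the replicate number as a block, Itgae (limma adjusted p = 0.0971 and 0.0596 in the comparisons with Ly49E+CD8aa-) and Itga4 (0.0547 for Ly49E+CD8aa- minus Ly49E-CD8aa+) no longer passed.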
